A study of Mus musculus with 4 samples.

Results

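Grhl2 and 9 other genes of the epithelial program were followed across 4 one-colour Agilent arrays made from GC-1, a mouse cell line of spermatogonial origin. The members are Grhl1, Grhl2, Grhl3, Cdh1, Epcam, Esrp1, Esrp2, Ovol1, Krt8 and Krt18, 10 of the 36994 gene names on the array, and every non-control probe that carries one of these names was taken, 14 of 56605 probes. Grhl2 was taken up because it stood among the probes with the smallest unadjusted p in the comparison of the vectors and was lower with the Hdac6 vector. The other 9 were added as its family and pathway, with results of the same comparison known, so the differences between vectors given for these genes are descriptions and carry no test. The empty vector group (2 arrays) received the empty plasmid, and the Hdac6 vector group (2 arrays) received murine Hdac6 with a myc/DDK tag behind a CMV promoter, so both groups went through transfection and 48 h of culture. The line is a single cell line, and the labels do not say whether arrays 1 and 2 of a group came from separate cultures. The spread between them may thus be technical.

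Grainyhead-like proteins are transcription factors of the CP2 family that bind enhancers of adhesion genes and keep epithelial sheets sealed. GRHL2 is known to raise Cdh1, claudin and Rab25 expression and to be locked in mutual repression with ZEB1, while OVOL factors and the splicing regulators ESRP1 and ESRP2 act on the same epithelial side. In the testis, E-cadherin and EpCAM are known from spermatogonia, and keratins 8 and 18 from immature Sertoli cells.

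The data showed part of this program and not the rest. Grhl1, Grhl3, Esrp2, Krt8, Krt18, 1 of 2 Grhl2 probes and 1 of 3 Esrp1 probes were flagged by the scanner software as well above background on all 4 arrays, while Cdh1 and Ovol1 were so on 0 arrays and Epcam on 1. In the Grhl2 signal that was detected, both Hdac6 vector arrays lay below both empty vector arrays, at 0.313-fold. Esrp2 stood at 0.608-fold, a difference that rests on 1 empty vector array, and Grhl1, Grhl3, Esrp1, Krt8 and Krt18 overlapped between the vectors.

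Grhl2 is read by a pair of probes on chromosome 15, both on the plus strand of build mm9, and only 1 of them gave a signal well above background. Their sequences are shown because the Grhl2 result rests on which of them is read. The inner probe, chr15:37239426-37239485, is given whole. Of the 3′ probe, chr15:37293139-37293198, the last 30 of 60 bases are given, with the capitals marking ATTAAA, a known variant of the polyadenylation signal.
Grhl2 inner probe: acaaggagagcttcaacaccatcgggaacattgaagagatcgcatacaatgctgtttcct
Grhl2 3′ probe, bases 31 to 60: gtgtgtacaatctgttcccacATTAAAaaa

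Both probes are designed to the Grhl2 mRNA, at positions 1360 and 4761 of it by the files, and lie 53.7 kb apart on the genome. ATTAAA was searched on the printed strand alone and begins at base 52 of the 3′ probe. It occurs in 3.86% of all 56605 probes, and 1.07% of them end, as this one does, in a run of at least 6 A. No exon or UTR annotation of build mm9 was used here, so the probes are placed by the files' own positions.

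The 3′ Grhl2 probe had a processed signal, which is the scanner's background-subtracted intensity, of 167 and 122 on the empty vector arrays and 58.6 and 27.3 on the Hdac6 vector arrays. As a level, meaning log2 signal minus the array's 75th percentile over non-control probes, this was -1.99 and -2.51 against -3.80 and -4.05. The lowest empty vector array lay 1.29 above the highest Hdac6 vector array, while the arrays of 1 group differed by 0.52 and 0.25. Group means were -2.25 ± 0.37 and -3.93 ± 0.18 (SD, n = 2), a log2 difference of -1.67 (SE 0.33 in the limma fit). Of 35214 tested probes, 32 (0.0909%) were lower by at least as much. The rule used this comparison, so that share says where the chosen probe lies and is no support for it.

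The inner Grhl2 probe had signals of 2.17 and 2.42 with the empty vector against 2.999 and 2.35 with the Hdac6 vector, and was not well above background on any array. The lowest signal that counted as well above background was 9.11 to 14.4, depending on the array. No fold is given for this probe, since values this low have no order. What differed between the vectors was therefore the signal of 1 stretch at the 3′ side of Grhl2, with no second Grhl2 probe to set beside it.

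The arrays themselves differed in ways that run alongside the Grhl2 values. The share of spots well above background was 66.4% and 65.1% on the empty vector arrays and 64.3% and 61.0% on the Hdac6 vector arrays, the order of the 3′ Grhl2 levels. The most alike pair was empty vector 2 with Hdac6 vector 1, where 0.601% of 32601 probes well above background on all arrays were at least 2-fold apart, against 3.83% to 6.85% in the other pairs. Between these closest arrays, picked after their values were seen, Grhl2 was 2.44-fold higher with the empty vector, and 22 probes (0.0675%) differed at least as much in that direction. Grhl2 was chosen on a comparison that holds both of these arrays, so that share is a description and no support. The Hdac6 probe lies at position 4081 of the mRNA by the files, and whether the vector's insert holds that stretch is not stated. It was at 3.31 and 2.83 on the empty vector arrays and 2.62 and 3.24 on the Hdac6 vector arrays, so it did not separate the groups, and it does not check the labels.

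Esrp1, which encodes an RNA-binding protein that sets epithelial exon choice, also had a split between its 3 probes on chromosome 4 (mm9, minus strand). Its detected probe, probe 1 at chr4:11260208-11260267, holds AATAAA, the usual polyadenylation signal, from base 40, a hexamer found in 9.77% of all probes on the printed strand. Bases 31 to 60 are shown with that hexamer in capitals, beside undetected probe 2, chr4:11284629-11284688, so that the pair can be set against the Grhl2 pair.
Esrp1 probe 1, bases 31 to 60: tctctgtaaAATAAAgccttcttgctaggt
Esrp1 probe 2: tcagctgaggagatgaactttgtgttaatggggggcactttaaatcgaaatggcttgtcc

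Probe 1 lies farthest along the gene's strand by genome position, but the files place it at transcript position 2781, probe 2 at 1916 and undetected probe 3 (chr4:11284996-11285055) at 3239, so which Esrp1 probe is nearest the 3′ end differs between these measures. Esrp1 probe 1 was at 85.8 and 99.4 with the empty vector against 99.2 and 86.4 with the Hdac6 vector. As levels these were -2.96 and -2.80 against -3.04 and -2.39, with overlapping groups and a log2 difference of 0.16 (SE 0.34) that turned to -0.16 without Hdac6 vector 2. Esrp1 probes 2 and 3 gave signals between 1.95 and 4.72. Such a split is common on this array: of 11332 named genes with at least 2 probes, 2828 (25.0%) had a probe well above background on all 4 arrays and another on 0.

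**Figure D1:**
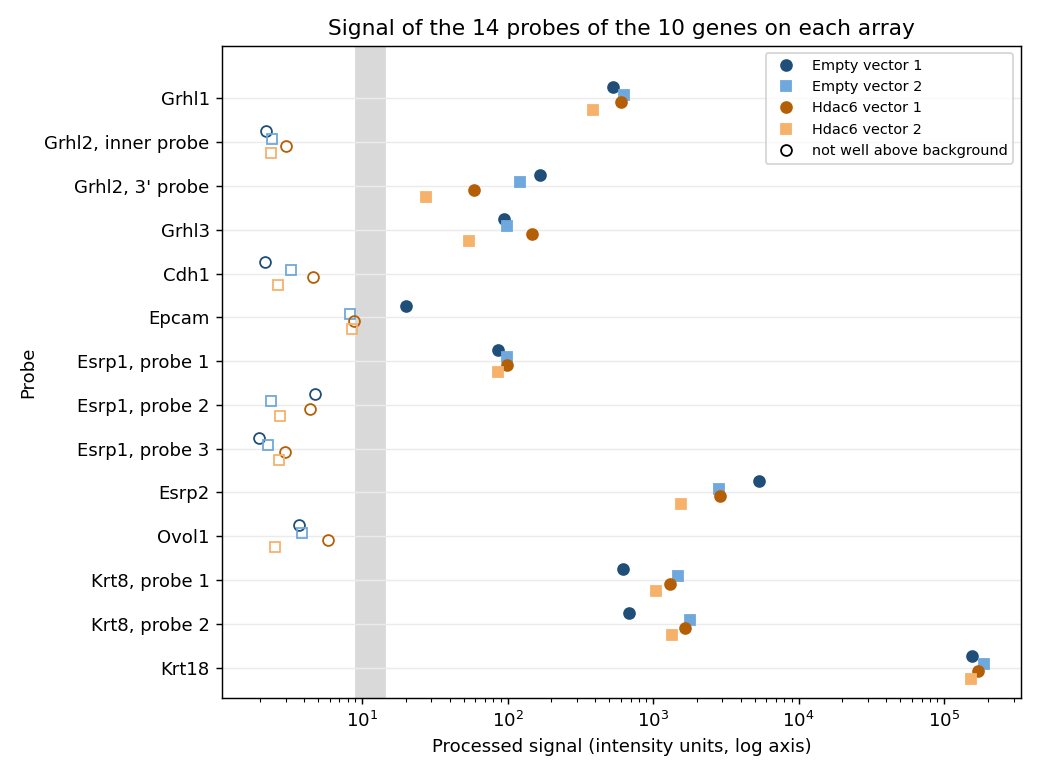
Processed signal (intensity units, log axis) of each of the 14 probes on each of the 4 arrays, with filled points well above background, open points not, and a grey band over the lowest signal well above background, 9.11 to 14.4. The 3′ Grhl2 probe is lower on both Hdac6 vector arrays, and the inner Grhl2 probe, Esrp1 probes 2 and 3, Cdh1 and Ovol1 lie left of the band throughout.

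The other grainyhead genes gave no such separation. Grhl1, a widely expressed paralog known from skin barrier and desmosomal gene control (chr12:25301994-25302053, plus strand), had levels of -0.34 and -0.14 on the empty vector arrays and -0.44 and -0.24 on the Hdac6 vector arrays. Its groups overlapped, with a log2 difference of -0.10 (SE 0.26). Grhl3, which is known for neural tube and skin closure (chr4:135097991-135098050, minus strand), had -2.81 and -2.81 against -2.47 and -3.06. The Hdac6 vector arrays thus lay on both sides of the empty vector arrays, and the mean log2 difference of 0.04 (SE 0.33) turned to -0.05 with median scaling and to -0.04 with quantile normalization.

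Of the adhesion genes among the members, Cdh1 was dark and Epcam was detected on 1 array, and the repressor gene Ovol1 was dark as well. Cdh1, which encodes E-cadherin (chr8:109193812-109193871, plus strand), had signals of 2.14, 3.28, 4.602 and 2.65 in the order empty vector 1 and 2, Hdac6 vector 1 and 2. Ovol1, a zinc finger repressor of mesenchymal genes (chr19:5550257-5550316, minus strand), had 3.70, 3.85, 5.80 and 2.52 in the same order. Both stayed under the detection limit of every array, and each has only 1 probe. Epcam, the epithelial cell adhesion molecule gene (chr17:88048972-88049800, plus strand, coordinates longer than the probe itself), had 20.0 on empty vector 1, where it was well above background, and 8.26, 8.76 and 8.53 on the other arrays. The single detection is on 1 array of 2 in its group, so Epcam was not tested and has no fold. Over the whole array, 31.9% of probes were well above background on 0 arrays and 57.6% on all 4, against 5 and 8 of the 14 probes of these genes.

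Esrp2, the second epithelial splicing regulator (chr8:108655089-108655148, minus strand), was bright on every array. Its signals were 5388 and 2820 with the empty vector against 2895 and 1556 with the Hdac6 vector, and its levels 3.02 and 2.03 against 1.83 and 1.78. The groups did not overlap, but the gap between them was 0.20, while the empty vector arrays differed by more than that among themselves (2.52 ± 0.70, SD, n = 2, against 1.80 ± 0.035). Of all tested probes 2.01% were lower by at least as much. Its log2 difference of -0.72 (SE 0.32) shrank to -0.22 without empty vector 1 and grew to -1.21 without empty vector 2. The value is thus set by which empty vector array is kept.

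The keratins 8 and 18, partners in the intermediate filaments of simple epithelia, were both detected on all arrays. Krt18 (chr15:101862341-101862400, plus strand) had levels of 7.86 and 8.09 on the empty vector arrays and 7.71 and 8.39 on the Hdac6 vector arrays, and no spot was saturated. Its arrays overlapped, and the mean log2 difference of 0.08 (SE 0.30) turned to -0.01 with median scaling. Krt8 is read by neighbouring probes on chromosome 15 (minus strand), at 101827138 to 101827197 and at 101827214 to 101827273. The second had 0.03 and 1.37 with the empty vector against 1.02 and 1.58 with the Hdac6 vector, and the first -0.11 and 1.09 against 0.69 and 1.21. In both probes empty vector 1 was the low array and empty vector 2 lay among the Hdac6 vector arrays. The second probe's log2 difference of 0.60 (SE 0.41) became -0.07 without empty vector 1 and 1.27 without empty vector 2.

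Of the 8 tested probes of these genes, 0 were called by limma (Benjamini-Hochberg adjusted p under 0.05), where 0.0114% of all tested probes were, and 1, the 3′ Grhl2 probe, had an unadjusted p under 0.05, where 1.84% of all did. The groups did not overlap, with the Hdac6 vector lower, in 2 of the 8, Grhl2 and Esrp2, where 12.0% of all tested probes did so, and in the other direction in 0, where 13.1% did (25.1% in either direction). At least 2-fold lower was 1 of the 8, Grhl2, against 0.73% of all, and 0 were at least 2-fold higher, against 0.554%. The log2 difference was below 0 in 3 of the 8, against 47.0% of all. Median scaling moved that share of all tested probes to 61.3% and turned Grhl3 and Krt18 below 0 as well. Counted as genes by their brightest tested probe, 5 of the 7 tested members were then lower. Because the members were chosen on this comparison, nothing is read from these counts.

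**Figure D2:**
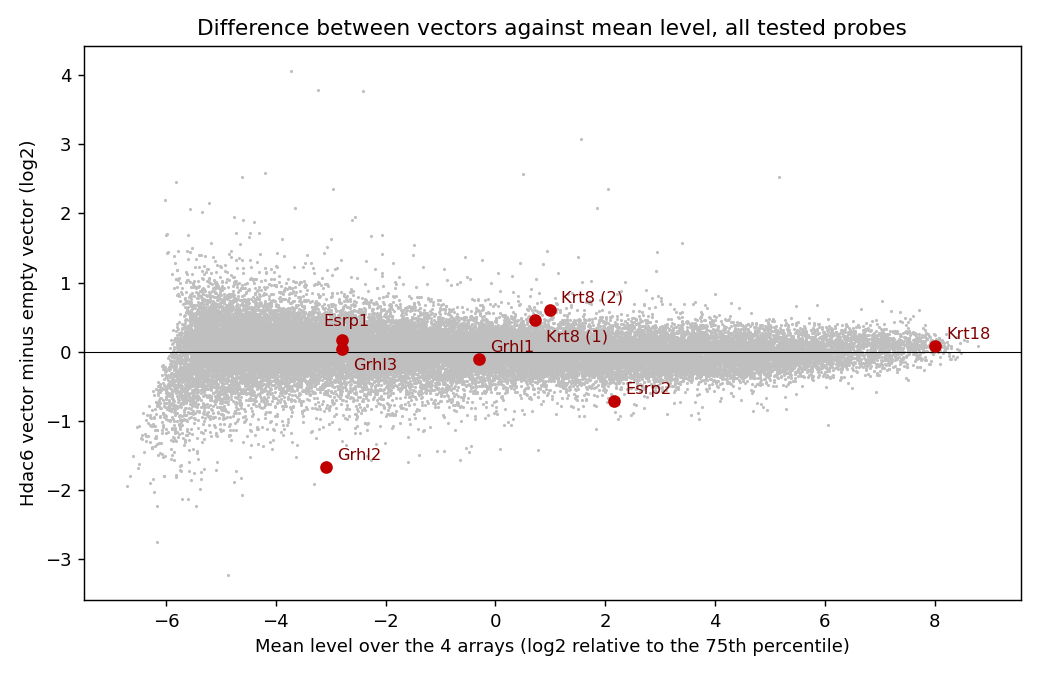
Log2 difference, Hdac6 vector minus empty vector, against the mean level over the 4 arrays (log2 relative to the 75th percentile), with 1 grey point for each of 35214 tested probes and red points for the 8 tested probes of the members. Grhl2 lies at -1.67 and Esrp2 at -0.72, and the other red points lie between -0.10 and 0.60.

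Markers of the labelled cell type were only partly present. Of 13 spermatogonial markers 10 were tested, among them Uchl1, Sall4 and Etv5. Not tested were the germ cell gene Dazl and the receptor gene Kit, well above background on no array, and Stra8, on 1 array. The germ cell helicase gene Ddx4, well above background on the empty vector arrays alone, and Gfra1 were tested through that group only. The tested share was 6 of 8 for Sertoli cell markers (Amh and Cldn11 dark), 6 of 8 for fibroblast markers (Thy1 and Lum dark), 3 of 5 for Leydig cell markers (Hsd3b1 and Lhcgr dark) and 5 of 5 for peritubular myoid markers. Of 7 macrophage and leukocyte markers 6 were tested, with Adgre1 dark. Their summed signal, in units of the 75th percentile, was 35.4 and 23.6 on the empty vector arrays and 21.6 and 20.2 on the Hdac6 vector arrays, the same order as Grhl2 and Esrp2. That order came from Cd68, a lysosomal gene, which made up 22.8 and 11.52 against 9.99 and 7.38 of it. Without Cd68 the sum was 12.5 and 12.0 against 11.6 and 12.8. Of the 6 tested markers, Cd68 included, 3 were lower and 3 higher (median log2 difference 0.0049). The sum of the myoid markers was 10.9 and 10.3 against 13.6 and 14.9, of which Acta2, the smooth muscle actin gene, made up 8.36 and 8.67 against 11.9 and 13.2. Without Acta2 it was 2.58 and 1.62 against 1.65 and 1.67. Of the 5 myoid markers, Acta2 included, 3 were lower and 2 higher (median -0.07). The sums of the other marker lists overlapped. In each of these marker lists limma called 0 genes, with 1 gene at an unadjusted p under 0.05 among the leukocyte markers, Cd68, 1 among the myoid markers, Acta2, and 0 in the others. The part of these differences, or of the share of detected spots, in the Grhl2 values was not tested. Fewer cells of a type and less RNA per cell cannot be told apart in these samples.

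Within 200 kb of the 3′ Grhl2 probe the array has 6 probes of other genes, a window chosen after the Grhl2 values were seen. Ncald, which encodes the calcium sensor neurocalcin delta and lies on the opposite strand, has detected probes 4807 and 8787 bases further along the chromosome. The nearer had levels of -1.32 and -1.43 with the empty vector against -1.37 and -0.95 with the Hdac6 vector. The farther had -5.55 and -5.49 against -4.95 and -4.19, higher on both Hdac6 vector arrays. The predicted gene Gm15941 overlapped between the groups, and the remaining 3 probes were dark. No neighbouring probe with a detected signal was lower on both Hdac6 vector arrays.

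**Figure D3:**
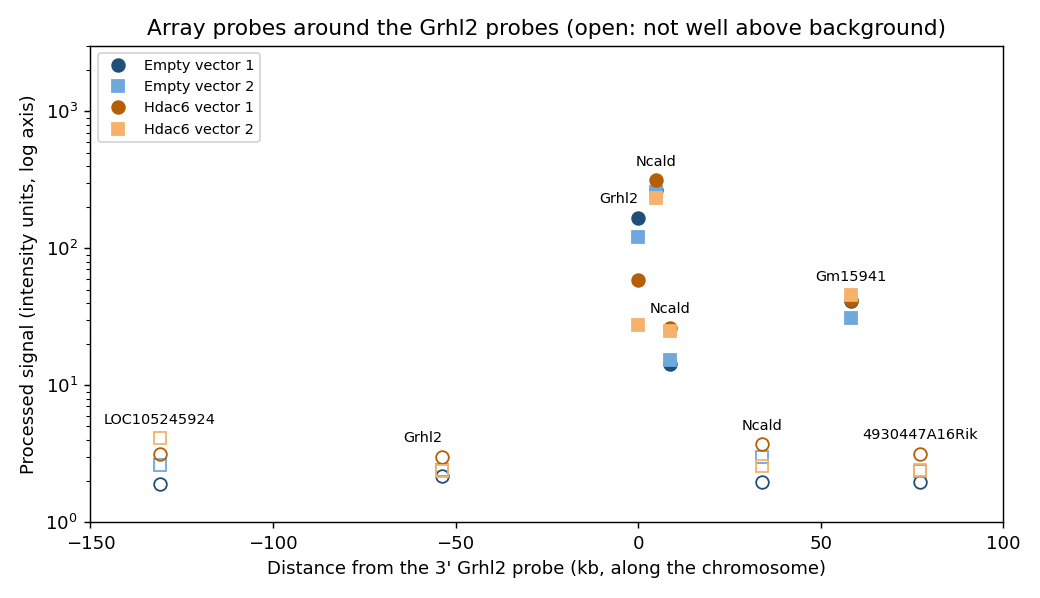
Processed signal (intensity units, log axis) of every array probe within 200 kb of the 3′ Grhl2 probe, against distance from it in kb along chromosome 15, with open points not well above background. The 3′ Grhl2 probe separates the vectors downward, while the Ncald probe 8787 bases away is higher on both Hdac6 vector arrays.

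The probes whose 4 levels followed those of the 3′ Grhl2 probe most closely, each centred on its own mean, belonged to Pramel31, Ptbp2, Arhgef6, Ptpn5 and B230344G16Rik, none of them in the lists used here. The measure was the root mean square difference over the 4 arrays, set against the Grhl2 values that chose the gene, so it is a description alone. Pramel31, a PRAME-like gene, was at a difference of 0.120. It was well above background on 3 arrays, at -3.59 and -4.05 on the empty vector arrays and -5.49 and -5.91 on the Hdac6 vector arrays. Pramel31 was dark on Hdac6 vector 2 and, like the other 4, passed the filter through the empty vector arrays alone. All these distances thus rest in part on values near background and have no order. The other 4 were dark on both Hdac6 vector arrays. Their signal was lower there by at least 2.13-fold for Ptbp2, 1.24-fold for Arhgef6, 1.36-fold for Ptpn5 and 1.82-fold for B230344G16Rik. These bounds set the empty vector mean against the lowest signal counted as well above background. Among the members the nearest to Grhl2 was Esrp2, at a root mean square difference of 0.512, and the farthest was the second Krt8 probe, at 1.34.

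The rest of the epithelial program, 70 genes in 5 lists, did not pass the test in either direction. Of the 55 tested genes, each by its brightest tested probe, limma called 0 (lowest adjusted p = 1.00, and 0 at an unadjusted p under 0.05), where 0.00852% of 23467 genes were called. Lower with the Hdac6 vector were 37 of the 55 (67.3%), against 49.4% of all genes, with a median log2 difference of -0.06 against 0.00. The groups did not overlap in 13 genes with the Hdac6 vector lower and in 2 with it higher, where 12.9% and 12.3% of all genes did so. Cldn1, Lama3, St14, Marveld3 and Cldn6 passed the filter through the empty vector arrays alone. All of these but Cldn6 were among the 37, with Lama3 and St14 also among the 13. Cldn6 was among the 2 that were higher without overlap. Among the 50 genes with a probe well above background on all 4 arrays, 33 were lower. The count of lower genes moved between 30 without Hdac6 vector 1 and 44 with median scaling. The share of all tested probes that were lower moved too, from 47.0% to 41.7% and 61.3% in these settings. Counts with median scaling in the lists below stand beside that 61.3%, which is a share of probes while the lists count genes. No share of all genes is given for that scaling. No test of the lists was made.

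Among the CP2 family and epithelial transcription factors, 8 of 15 were tested, 6 of them lower and 2 higher (median -0.15). With median scaling, which moved the difference of every probe by -0.09, this became 8 lower and 0 higher (median -0.24). Elf3, Ehf, Elf5 and Foxa1, factors of simple and glandular epithelia, were dark on all arrays, as were Ovol3 and Tfap2c. Ovol2, the paralog of Ovol1, was detected on every array at 3.32 and 2.75 with the empty vector against 2.49 and 3.62 with the Hdac6 vector. Among the largest differences were those of Tfcp2l1, a CP2 factor of stem cells and kidney ducts, at 0.716-fold, Klf5 at 0.774-fold and Ubp1 at 0.874-fold. Tfcp2l1 was at -1.29 and -2.08 with the empty vector against -2.22 and -2.12 (log2 difference -0.48, SE 0.34), so the gap between its groups was smaller than the distance between the Hdac6 vector arrays.

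Junction and polarity genes were mostly expressed despite dark Cdh1, with 22 of 27 tested, 17 lower and 5 higher (median -0.07), or 18 and 4 with median scaling. Cdh3, which encodes P-cadherin, was at 3.93 and 4.10 on the empty vector arrays and 3.72 and 4.33 on the Hdac6 vector arrays. F11r, which encodes junctional adhesion molecule A, was at 7.44 and 7.18 against 7.08 and 7.88. Both overlapped between the vectors. The known Grhl2 targets Cldn4 and Rab25 were not tested, being well above background on 0 and 1 arrays. The largest differences were those of the claudin genes Cldn1 and Cldn3. Cldn1 was dim on both Hdac6 vector arrays. Its levels were -5.17 and -5.64 with the empty vector against -6.39 and -5.49 with the Hdac6 vector, so its groups overlapped. The detection limit of Hdac6 vector 2, a level of -5.33, lay above the empty vector mean of -5.40, so no fold or bound is given. Cldn3 was at 0.765-fold, also overlapping. Next came the desmosomal plakophilin gene Pkp3 at 0.779-fold and the polarity gene Crb3 at 0.790-fold.

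Of the 7 membrane protease genes and their inhibitors 5 were tested, 4 lower and 1 higher (median -0.15). Spint1, which encodes the inhibitor of matriptase, was at 0.710-fold, with levels of -3.44 and -3.73 against -4.11 and -4.05 (log2 difference -0.49, SE 0.33). St14, the gene of matriptase itself, was at 0.842-fold and well above background on 3 arrays. Prss8, the gene of prostasin, stood at 0.901-fold and the inhibitor gene Spint2 at 1.06-fold, and with median scaling 5 of 5 were lower.

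The other keratins were detected in full, 11 of 11, with 3 lower and 8 higher (median 0.07). With median scaling this became 6 lower and 5 higher (median -0.02). Krt14, a keratin of basal cells, was at 7.96 and 8.13 with the empty vector against 7.76 and 8.67 with the Hdac6 vector, and Krt19 at 6.86 and 7.54 against 7.16 and 7.48. Neither separated the groups. The largest differences were 0.765-fold for Krt80, 1.25-fold for Krt10, 0.810-fold for Krt20 and 1.18-fold for Krt7.

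Basal adhesion and receptor genes were tested in 9 of 10 cases, 7 lower and 2 higher (median -0.09), the same counts as with median scaling. The adaptor gene Grb7 was at 0.672-fold (log2 difference -0.57, SE 0.41), with overlapping groups. Of the laminin genes, Lamb3 was at 0.707-fold with overlapping groups. Lama3 passed the filter through the empty vector arrays alone and was dark on both Hdac6 vector arrays, so no fold is given. The hemidesmosomal collagen gene Col17a1 was at 1.24-fold, also overlapping.

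Repressors of the epithelial program and mesenchymal genes were expressed beside these keratins and junction genes, 11 of 12 being tested, 7 lower and 4 higher (median -0.09), or 9 and 2 with median scaling. None was called by limma (0, and 0 at an unadjusted p under 0.05). The Cdh1 repressor genes Zeb1 and Zeb2 were at 0.749-fold and 0.714-fold. Zeb1 had levels of -0.20 and -0.58 against -0.95 and -0.66 (SE of the log2 difference 0.28). Zeb2 had 1.31 and 0.83 against 0.61 and 0.56 (SE 0.26). Each was lower on both Hdac6 vector arrays by a gap smaller than the distance between the empty vector arrays. Cdh2, which encodes N-cadherin, was at 1.17-fold with overlapping groups. The limb and mesenchyme factor gene Prrx1 was at 1.14-fold and higher on both Hdac6 vector arrays. The groups did not overlap in 2 of the 11 genes with the Hdac6 vector lower and in 1 with it higher. Over all genes these shares were 12.9% and 12.3%. Vim was at 6.49 and 6.84 on the empty vector arrays and 6.62 and 6.82 on the Hdac6 vector arrays, overlapping.

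**Figure D4:**
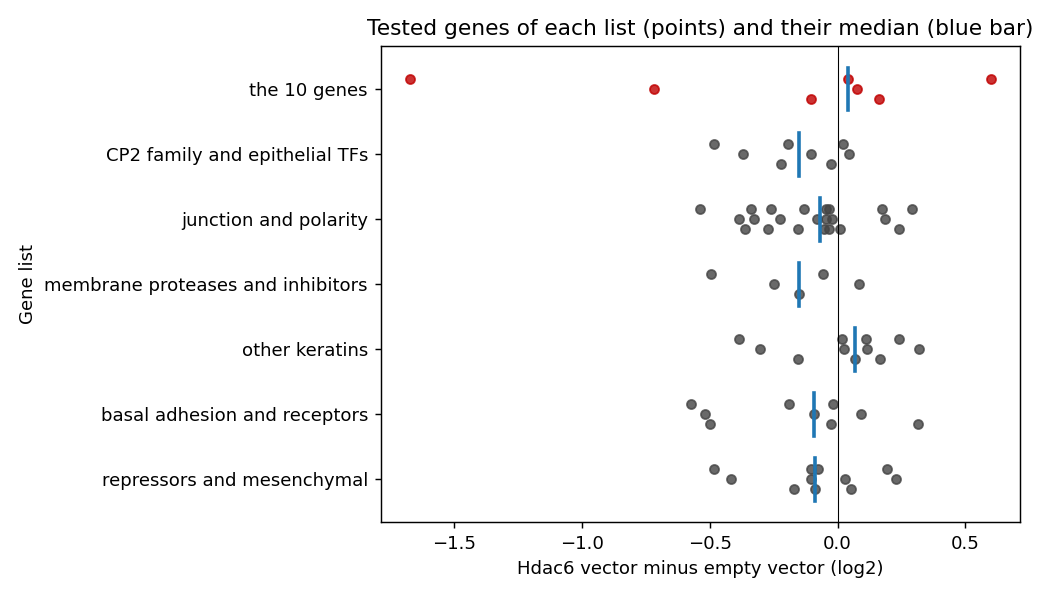
Log2 difference, Hdac6 vector minus empty vector, of the brightest tested probe of each tested gene, by list, with the median of each list as a blue bar. Grhl2 at -1.67 is the leftmost point of all lists, and all 66 tested genes outside the 10 members lie between -0.57 and 0.32.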

How the data were processed

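Cy3-labelled RNA, primed with oligo-dT, was hybridised to the arrays, per the labels' protocols. The authors deposited Feature Extraction 11.5.1.1 scanner files of spot intensity, corrected for background within each array but not normalized between arrays, per the file headers, which also name build mm9. The authors also deposited a value table on a log2 scale with 1 row per gene name. How that table was made is not stated in what was used here, and it served as an alternative.

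Processed intensities were put on the log2 scale, repeated spots of 300 probes were averaged, and the 75th percentile of each array was taken off. Names of 43849 of 56605 probes came from RefSeq's GRCm38.p6 gene table, and the rest kept the files' name. A probe was tested if well above background on both arrays of at least 1 group (35214 probes). The groups were compared in limma 3.58.1 under R 4.3.3 (lmFit, eBayes with a trend), two-sided, with p-values adjusted by Benjamini-Hochberg across tested probes. The fit was tested on simulated data. Having 2 arrays per group limits the precision.

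The members and lists were chosen with earlier results of these data known. Named are all members, in each list up to 4 tested genes with the largest differences and any called, the 5 probes most like Grhl2, and Hdac6. Of these, 1 gene is not reported here. The other genes given with values (Cldn4, Rab25, Cdh3, F11r, Ovol2, Krt14, Krt19, Vim, the markers and the neighbours of Grhl2) were picked after their values were seen. Alternatives were normexp background correction, quantile and median scaling, other filters, no trend, the mean of a gene's probes, the value table, leaving out each array and a replicate block. All arrays were on 1 slide.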

Additional observations from a re-analysis of the deposited data

How the results depend on the processing

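The number of probes called by limma, 4 in the comparison as reported, was 32 with normexp background correction, 22 with the replicate block, 18 with a crossed replicate block (chosen after seeing the data), 19 genes (not probes) of 23464 in the authors' value table, 2 with quantile normalization, 2 without a trend in the spread and 0 with median scaling (727 at an unadjusted p under 0.05). Leaving out 1 array gave 0 to 310, namely 310 when empty vector 2 was dropped, 20 for empty vector 1, 2 for Hdac6 vector 1 and 0 for Hdac6 vector 2 (651 at an unadjusted p under 0.05). The deviations of arrays with the same replicate number correlated at -0.353 over 35214 probes and the labels state no pairing, so the numbers were not taken to pair the arrays. In these settings, and with other filters, limma called 0 of the other epithelial genes, and the number lower was 30 to 44.

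The Grhl2 log2 difference of -1.67 was -0.88 with normexp, which adds an offset of 50 to every signal, and -0.65 as the mean of both Grhl2 probes, 1 of them dark. In the other 12 settings it was -1.93 to -1.42. Esrp2 (-1.21 to -0.22) and Grhl1 (-0.205 to -0.0018) kept their sign in all settings run, but every Grhl1 value was smaller in size than its SE of 0.26. Dropping Hdac6 vector 2 turned Esrp1 to -0.16 and Krt18 to -0.26. Dropping Hdac6 vector 1 turned Grhl3 to -0.25, and dropping empty vector 1 turned Krt18 to -0.04 and Krt8 to -0.07. In the authors' value table Grhl3 was -0.04 and Krt18 -0.01. The cause was not tested. Cdh1, Ovol1 and the inner Grhl2 probe gave signals under the detection limit, which limits any statement on them to that.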

Other observations

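In the authors' deposited table, which has 1 row per gene name, the Grhl2 row read -1.73 and -2.24 on the empty vector arrays against -3.53 and -3.95 on the Hdac6 vector arrays, for a log2 difference of -1.76. The Esrp1 row of the authors' deposited table read -2.69 and -2.53 against -2.77 and -2.29. In both rows the order of the arrays was that of the gene's detected probe. The Cdh1 row, whose probe was dark on every array, read -8.01 and -7.46 against -7.20 and -7.31.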
